A study of Mus musculus with 9 samples.

Results

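Transcripts of 10 enzymes were measured in pancreatic islets of βRapKO and WT mice. The enzymes refill the citric acid cycle, use its malate or oxaloacetate, or carry reducing equivalents from cytosolic NADH into mitochondria. The genes are *Pcx*, *Pck2*, *Gpd2*, *Mdh1*, *Mdh2*, *Got1*, *Got2*, *Me1*, *Me2* and *Me3*, chosen by name, and every probe set that the platform annotation pairs with exactly 1 of them was taken. This gave 26 of the 45037 probe sets and 10 of the 18193 genes on the array, and 0 of their probe sets were shared with another gene. βRapKO islets came from male *Raptor* flox/flox mice that carried RIP-Cre, in which the rat insulin promoter drives Cre recombinase, and WT islets came from male littermates with *Raptor* flox/flox and no Cre. Both groups were 8 weeks old and both carried the floxed alleles. The RIP-Cre line had a mixed background of C57BL/6J and a second strain, and the floxed line was C57BL/6J. The arrays were Affymetrix Mouse Genome 430 2.0, 4 for βRapKO and 5 for WT, and each held RNA of islets pooled from 5 animals of the same genotype. Arrays are named below as KO replicates 1 to 4 and WT replicates 1 to 5. No control with Cre and intact *Raptor* was among the arrays used here, so an effect of the transgene or of the strain background cannot be told apart from loss of *Raptor*.

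Glucose carbon enters the beta cell mitochondrion as pyruvate, which is either oxidised to acetyl-CoA or carboxylated to oxaloacetate. The carboxylation is called anaplerosis because it adds carbon to the citric acid cycle, and in rodent islets it takes an unusually large share of pyruvate. Cytosolic NADH made by glycolysis cannot cross the inner membrane, so its electrons are carried by the glycerol phosphate shuttle and the malate-aspartate shuttle, which matter in beta cells because lactate dehydrogenase is kept low there. Malate and citrate that leave the mitochondrion can be turned back into pyruvate by malic enzymes, a cycle that makes NADPH.

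Values are log2 signals, given as mean ± SD over arrays, and differences are βRapKO minus WT with their SE, from limma fitted on all 13644 genes left after the dimmest 0.25 was removed. Each gene is represented by its brightest probe set, judged by the mean of all 9 arrays, and was called at a Benjamini-Hochberg adjusted p under 0.05. The arrays had nearly the same trimmed mean, 497.1 to 497.7 before the logarithm, as scaling to a common value would give, and medians of 6.85 to 7.05. How the values were scaled is not stated, so this likeness says nothing about the arrays before processing. *Rptor*, the gene symbol of *Raptor*, was lower in βRapKO islets by 0.72 ± 0.17 (SE) in its brightest probe set (log2 difference -0.72, limma adjusted p = 0.041), a call lost without any 1 of KO replicates 1, 2 and 4 or WT replicates 1, 2, 3 and 5 (limma adjusted p of 0.0513 to 0.115). That call came from the fit over genes. In a separate fit over all probe sets without a filter, the brightest *Rptor* probe set was not called (-0.72 ± 0.19 SE, limma adjusted p = 0.163). The 2 dimmer *Rptor* probe sets gave -0.41 ± 0.60 (SE) and 0.65 ± 0.63 (SE) in that fit, also not called. Of the cell types that an islet preparation can hold, beta cell markers averaged lower in βRapKO islets, and stromal, endothelial, delta and ductal cell markers averaged higher. Of 3 delta cell markers 2 had positive differences and 1 was called (*Hhex*), with *Sst* at -0.04. All 3 tested ductal cell markers, of 6 listed, had positive differences and 0 were called. In such bulk samples, fewer cells of a type and less RNA per cell cannot be told apart.

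Among the 10 enzymes, 2 transcripts fell in βRapKO islets, 0 rose and 8 did not pass the test. The 2 were *Gpd2* and *Pcx*, the 1 enzyme here that is particular to the glycerol phosphate shuttle and the 1 that carboxylates pyruvate. Over all 13644 genes 6.3% were called, 2.63% lower and 3.67% higher in βRapKO islets. The groups did not overlap in 3 of the 10 genes, with βRapKO below WT in *Gpd2* and *Pcx* and above WT in *Me3*, whereas 12.5% of all genes had no overlap, 5.05% with βRapKO below and 7.43% with βRapKO above. The same 3 genes had an unadjusted limma p under 0.05, as did 21.8% of all genes. The median log2 difference was -0.06 over the 10 enzymes and 0.04 over all genes. By size of the difference *Gpd2* ranked 73 and *Pcx* ranked 100 among the 359 genes called lower, and by p they ranked 21 and 97 among all genes. Members with 1 probe set were *Pcx*, *Got1* and *Me3*, whose values therefore have no second reading on the array. The paper reports *Pcx* decreased in these islets, citing RT-PCR and array values. Its supplement lists *Pcx* and *Gpd2* lower by the same probe sets that represent them here.

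**Figure D1:**
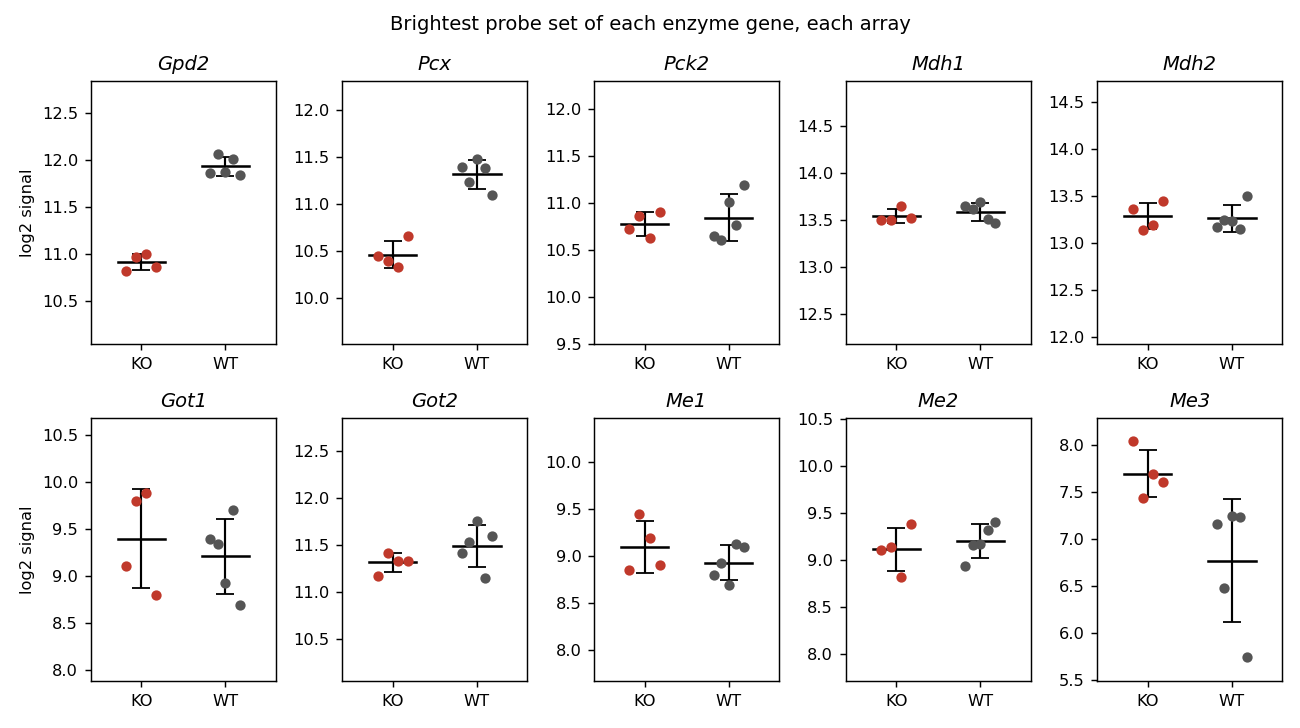
Log2 signal (vertical axis) of the brightest probe set of each enzyme gene on each array, βRapKO (KO, red, 4 arrays) left of WT (grey, 5 arrays), with the mean as a line and the SD as bars; each panel has its own level but the panels span similar widths. In *Gpd2* and *Pcx* all KO points lie below all WT points, in *Me3* all KO points lie above, and in the other 7 genes the groups overlap.

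*Gpd2* encodes the mitochondrial glycerol-3-phosphate dehydrogenase, which takes electrons from glycerol-3-phosphate and passes them to ubiquinone at the inner membrane. It was the enzyme of the 10 with the lowest adjusted p. Its brightest probe set, 1428323_at, read 10.82, 10.97, 11.01 and 10.87 in βRapKO islets, against 11.87, 12.07, 11.88, 12.02 and 11.85 in WT islets. All βRapKO arrays were low and all WT arrays high, with arrays of each genotype close together. The means were 10.92 ± 0.09 (SD, n = 4) in βRapKO and 11.94 ± 0.10 (SD, n = 5) in WT islets. *Gpd2* was thus 2.03-fold lower, with a log2 difference of -1.02 ± 0.09 (SE, 95% confidence interval -1.22 to -0.82, limma adjusted p = 0.000622). The other *Gpd2* probe sets all had negative differences. The probe set 1417434_at read 10.06, 10.71, 10.45 and 10.29 in βRapKO islets, against 11.81, 11.99, 11.19, 11.55 and 11.13 in WT islets, again without overlap. Its log2 difference was -1.16 ± 0.23 (SE), which did not pass in the fit over all 45037 probe sets (limma adjusted p = 0.0801). The groups overlapped in the 2 dimmer probe sets, 1452741_s_at with 7.42 to 8.51 in βRapKO and 8.17 to 9.18 in WT islets, and 1428324_at with 5.69 to 6.40 in βRapKO and 6.30 to 7.84 in WT islets. Their log2 differences were -0.74 ± 0.28 (SE) and -0.70 ± 0.34 (SE). With the 4 probe sets averaged, the difference of *Gpd2* was -0.91 (limma adjusted p = 0.0433).

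The sequences before the annotated starts of *Gpd2* and *Pcx* are shown because these are the members that were called. They are the 250 bases before each start listed in RefSeq for build GRCm38.p6, on the plus strand, and both genes have 2 listed starts. Motifs were searched on both strands and matches stand in capitals. The E-box CACGTG is bound by factors such as USF and ChREBP. The letters AAGGTCA are the core of the element bound by the ERR nuclear receptors. The GC box of Sp factors was searched as GGGCGG, which reads CCGCCC where it lies on the other strand. None of these motifs overlaps another in the windows shown.
Gpd2, chr2:57237428-57237677: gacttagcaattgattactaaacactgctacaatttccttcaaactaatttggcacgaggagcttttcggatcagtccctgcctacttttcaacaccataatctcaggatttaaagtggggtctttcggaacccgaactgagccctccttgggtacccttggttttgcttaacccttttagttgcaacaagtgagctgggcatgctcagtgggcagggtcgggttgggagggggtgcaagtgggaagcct
Gpd2, chr2:57238132-57238381: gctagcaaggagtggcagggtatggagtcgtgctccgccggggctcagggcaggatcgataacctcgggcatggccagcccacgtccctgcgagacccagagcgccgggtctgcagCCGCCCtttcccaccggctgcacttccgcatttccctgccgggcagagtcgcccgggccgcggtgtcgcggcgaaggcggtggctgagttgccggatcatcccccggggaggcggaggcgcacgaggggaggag
Pcx, chr19:4510222-4510471: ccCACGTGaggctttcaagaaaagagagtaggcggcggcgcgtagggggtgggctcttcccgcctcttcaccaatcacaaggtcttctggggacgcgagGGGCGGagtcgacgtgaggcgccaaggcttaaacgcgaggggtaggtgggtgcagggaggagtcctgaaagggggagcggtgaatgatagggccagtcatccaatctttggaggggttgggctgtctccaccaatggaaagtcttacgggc
Pcx, chr19:4594069-4594318: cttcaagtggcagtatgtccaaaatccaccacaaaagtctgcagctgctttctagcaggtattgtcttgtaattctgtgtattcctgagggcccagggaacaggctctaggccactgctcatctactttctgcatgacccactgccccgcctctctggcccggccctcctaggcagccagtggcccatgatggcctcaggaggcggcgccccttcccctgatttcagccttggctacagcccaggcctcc
The *Gpd2* window at chr2:57238132-57238381 held a GC box with its first base 134 bases before the start, and the other held none of the letters. The window of the *Pcx* start at chr19:4510222-4510471 held CACGTG with its first base 248 bases before the start and GGGCGG at 151 bases, and the other *Pcx* window held none. Among all 32851 mouse windows of the same length, 6.02% held the E-box, 4.08% held the ERR core and 32.7% held the GC box. A match describes the sequence only. G and C made up 48.8% and 71.2% of the *Gpd2* windows and 60.8% and 58% of the *Pcx* windows, in the order shown. Windows were found for 9 of the 10 members, 12 in all, with no entry for *Me2*. The ERR core occurred among them in *Got1*, 245 bases before the start. The GC box occurred also in *Pck2*, *Mdh1*, *Mdh2* and 1 of the *Me1* windows.

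*Pcx* encodes pyruvate carboxylase, the biotin-dependent mitochondrial enzyme that makes oxaloacetate from pyruvate. Its single probe set, 1416383_a_at, read 10.44, 10.39, 10.33 and 10.66 in βRapKO islets, against 11.39, 11.23, 11.48, 11.38 and 11.09 in WT islets. The highest βRapKO array (replicate 4) stayed below the lowest WT array (replicate 5). The means were 10.46 ± 0.14 (SD, n = 4) in βRapKO and 11.31 ± 0.15 (SD, n = 5) in WT islets. *Pcx* was thus 1.81-fold lower, with a log2 difference of -0.86 ± 0.11 (SE, 95% confidence interval -1.10 to -0.61, limma adjusted p = 0.00378). *Pck2*, the mitochondrial phosphoenolpyruvate carboxykinase, uses the oxaloacetate that pyruvate carboxylase makes. It read 10.73, 10.86, 10.63 and 10.91 in βRapKO islets, against 10.65, 10.61, 11.01, 10.77 and 11.19 in WT islets. The βRapKO arrays lay within the WT range, and the log2 difference was -0.07 ± 0.14 (SE, 95% confidence interval -0.38 to 0.24, limma adjusted p = 0.841). With the stromal marker average described below as a covariate it was at -0.70 ± 0.18 (SE, limma unadjusted p = 0.00479 and adjusted p = 0.230). That fit could not separate the stromal average from genotype. The second *Pck2* probe set had a log2 difference of -0.36 ± 0.26 (SE) with overlapping groups.

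The falls of *Gpd2* and *Pcx* occurred beside differences in cell type markers, whose part in them was not tested. The 8 tested beta cell markers, of 11 listed, averaged 13.23 to 13.42 over the βRapKO arrays and 13.84 to 14.02 over the WT arrays, a difference of -0.62 (exact permutation test over 126 splits of the arrays, two-sided p = 0.00794, the smallest these splits allow, 0.0238 after adjustment over 12 cell types). None of the 8 was positive and 5 fell. The hormones *Ins2* and *Iapp* gave log2 differences of -0.05 and -0.12 and were not called, whereas the glucose transporter gene *Slc2a2* fell by 1.33. *Iapp* was read at group means of 15.2 and 15.3, at the top of the signal range, where a difference can be compressed, and *Ins2* at 14.1 and 14.2. All 16 stromal markers had positive differences and 9 rose, with averages of 9.68 to 10.21 over the βRapKO arrays and 8.37 to 9.30 over the WT arrays. Endothelial markers averaged 9.84 to 10.16 over βRapKO and 9.48 to 9.68 over WT arrays, with 11 of 12 positive and 0 called. Acinar markers differed more among arrays of a genotype than between genotypes, 8.89 to 13.91 over βRapKO and 9.44 to 13.83 over WT arrays. Of the 6 adipocyte markers, a cell type rich in *Pcx* and malic enzyme, 4 were on the array and 0 of them passed the filter on dim genes, with group means of 2.93 to 5.39. With the stromal average of each array as a covariate 3 genes were called in all, and neither enzyme was among them (*Gpd2* -0.79, limma adjusted p = 0.204 and *Pcx* -0.84, limma adjusted p = 0.256). The stromal averages did not overlap between the genotypes, so this fit could not separate them from genotype. The SE of *Gpd2* was 0.17 in it against 0.09 without the covariate, and that of *Pcx* 0.25 against 0.11. In that fit *Got1* was at 1.34, *Me2* at -0.50 and *Me3* at 1.49, none of them called. With the acinar average as a covariate both calls held.

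**Figure D2:**
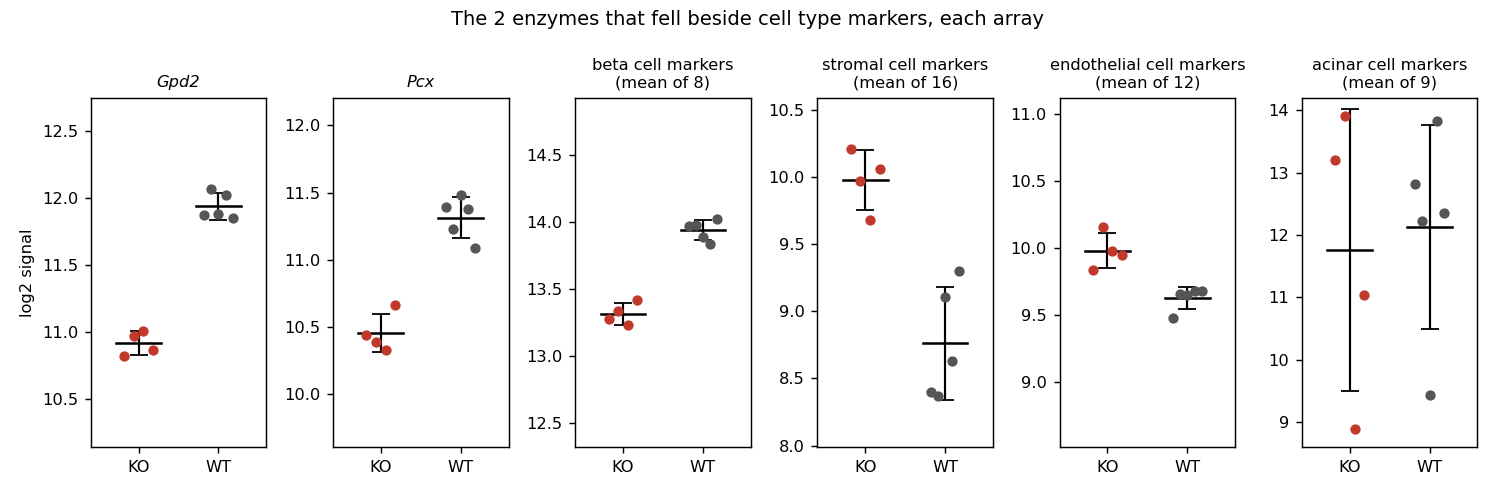
Log2 signal (vertical axis, a separate scale in each panel) of *Gpd2* and *Pcx* and the averaged markers of 4 cell types on each array, βRapKO (KO, red, 4 arrays) left of WT (grey, 5 arrays), with mean and SD. KO points lie below all WT points for *Gpd2*, *Pcx* and the beta cell average (13.23 to 13.42 against 13.84 to 14.02) and above all WT points for the stromal and endothelial averages, whereas the acinar average ranges from 8.89 to 13.91 in KO and 9.44 to 13.83 in WT islets.

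The malate-aspartate shuttle depends on 4 of the enzymes, and none of them was called. *Mdh1* and *Mdh2* encode the cytosolic and mitochondrial malate dehydrogenases. *Mdh1* read 13.50, 13.50, 13.65 and 13.52 in βRapKO islets, against 13.65, 13.62, 13.69, 13.51 and 13.47 in WT islets, a log2 difference of -0.05 ± 0.08 (SE, 95% confidence interval -0.23 to 0.14, limma adjusted p = 0.803). *Mdh2* read 13.36, 13.14, 13.19 and 13.44 in βRapKO islets, against 13.17, 13.24, 13.23, 13.15 and 13.50 in WT islets, a log2 difference of 0.02 ± 0.11 (SE, 95% confidence interval -0.22 to 0.26, limma adjusted p = 0.934). In both genes the groups covered nearly the same range. These 2 members were read at log2 means over 13, toward the bright end of arrays whose highest signal was 15.6. Of the 4 further *Mdh1* probe sets, those read at 12.61 and 12.43 (1448172_at, βRapKO and WT means) and at 13.08 and 13.04 (1454925_x_at) gave 0.18 ± 0.12 (SE) and 0.04 ± 0.12 (SE).

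*Got1* and *Got2* encode the cytosolic and mitochondrial aspartate aminotransferases, which interconvert oxaloacetate and aspartate on the 2 sides of the membrane. *Got1* read 9.11, 9.80, 9.88 and 8.80 in βRapKO islets, against 9.39, 9.34, 8.93, 9.70 and 8.69 in WT islets. The SD was 0.53 among βRapKO and 0.40 among WT arrays, more than the log2 difference between the groups, which was 0.19 ± 0.28 (SE, 95% confidence interval -0.44 to 0.82, limma adjusted p = 0.759). *Got2* read 11.17, 11.41, 11.33 and 11.33 in βRapKO islets, against 11.41, 11.53, 11.75, 11.15 and 11.59 in WT islets. WT replicate 4 (11.15) lay just below every βRapKO array, and the other WT arrays were at 11.41 to 11.75. The log2 difference was -0.18 ± 0.13 (SE, 95% confidence interval -0.46 to 0.10, limma adjusted p = 0.458). Without WT replicate 4 it was -0.26 ± 0.10 (SE, limma unadjusted p = 0.0334 and adjusted p = 0.194). Other *Got2* probe sets did not settle its direction. The log2 differences were 0.19 ± 0.43 (SE) in 1417716_at, -0.18 ± 0.28 (SE) in 1430397_at and 1.56 ± 0.85 (SE) in 1447768_at, the last at a mean signal of 3.99 in βRapKO and 2.44 in WT islets, among the dimmest on the array.

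The malic enzymes turn malate into pyruvate, *Me1* in the cytosol with NADP, *Me2* in mitochondria with NAD or NADP, and *Me3* in mitochondria with NADP. None of the 3 was called. *Me3* had the largest difference among the members that did not pass. It read 8.04, 7.44, 7.69 and 7.61 in βRapKO islets, against 7.16, 6.48, 7.24, 7.23 and 5.74 in WT islets. All βRapKO arrays lay above all WT arrays, but WT replicates 2 and 5 were well below the other WT arrays, and the lowest βRapKO array (7.44) lay close to the highest WT array (7.24). The means were 7.69 ± 0.26 (SD, n = 4) in βRapKO and 6.77 ± 0.66 (SD, n = 5) in WT islets. The log2 difference was 0.93 ± 0.32 (SE, 95% confidence interval 0.21 to 1.64, limma unadjusted p = 0.0171 and adjusted p = 0.125). By the unadjusted test of the study's methods with a fold over 1.5, 3 members passed, *Me3* along with *Gpd2* and *Pcx*, and so did 8.02% of all genes. After Benjamini-Hochberg adjustment of that test 2 members (*Gpd2* and *Pcx*) and 5.26% of all genes passed.

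*Me1* read 8.85, 9.45, 9.19 and 8.90 in βRapKO islets, against 8.80, 8.92, 8.69, 9.13 and 9.09 in WT islets, with 2 of the βRapKO arrays above every WT array. The log2 difference was 0.17 ± 0.15 (SE, 95% confidence interval -0.17 to 0.52, limma adjusted p = 0.569), and its second probe set gave the same 0.17 ± 0.21 (SE). *Me2* read 9.10, 9.14, 8.82 and 9.38 in βRapKO islets, against 8.93, 9.16, 9.17, 9.32 and 9.40 in WT islets, which overlapped almost fully. Its log2 difference was -0.08 ± 0.14 (SE, 95% confidence interval -0.39 to 0.23, limma adjusted p = 0.794), and its 3 other probe sets gave -0.15, -0.32 and -0.72, none of them called.

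Taking all 26 probe sets without a filter, 16 had negative and 10 had positive differences. The test over the whole array called 2 of them, the brightest of *Gpd2* (limma adjusted p = 0.0114) and that of *Pcx* (limma adjusted p = 0.0376), where 0.542% of the 45037 probe sets were called, 0.302% lower in βRapKO islets. In 4 of the 26 the groups did not overlap, against 6.87% of all probe sets, and these were the 2 brighter *Gpd2* probe sets and those of *Pcx* and *Me3*. At this stricter correction the calls depended on single arrays. Without KO replicate 1 no probe set of the 10 genes was called, and without any other 1 array that of *Gpd2* alone was called. In the fit over genes both calls held without any 1 array, with log2 differences of -1.05 to -0.99 in *Gpd2* and -0.92 to -0.81 in *Pcx*.

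**Figure D3:**
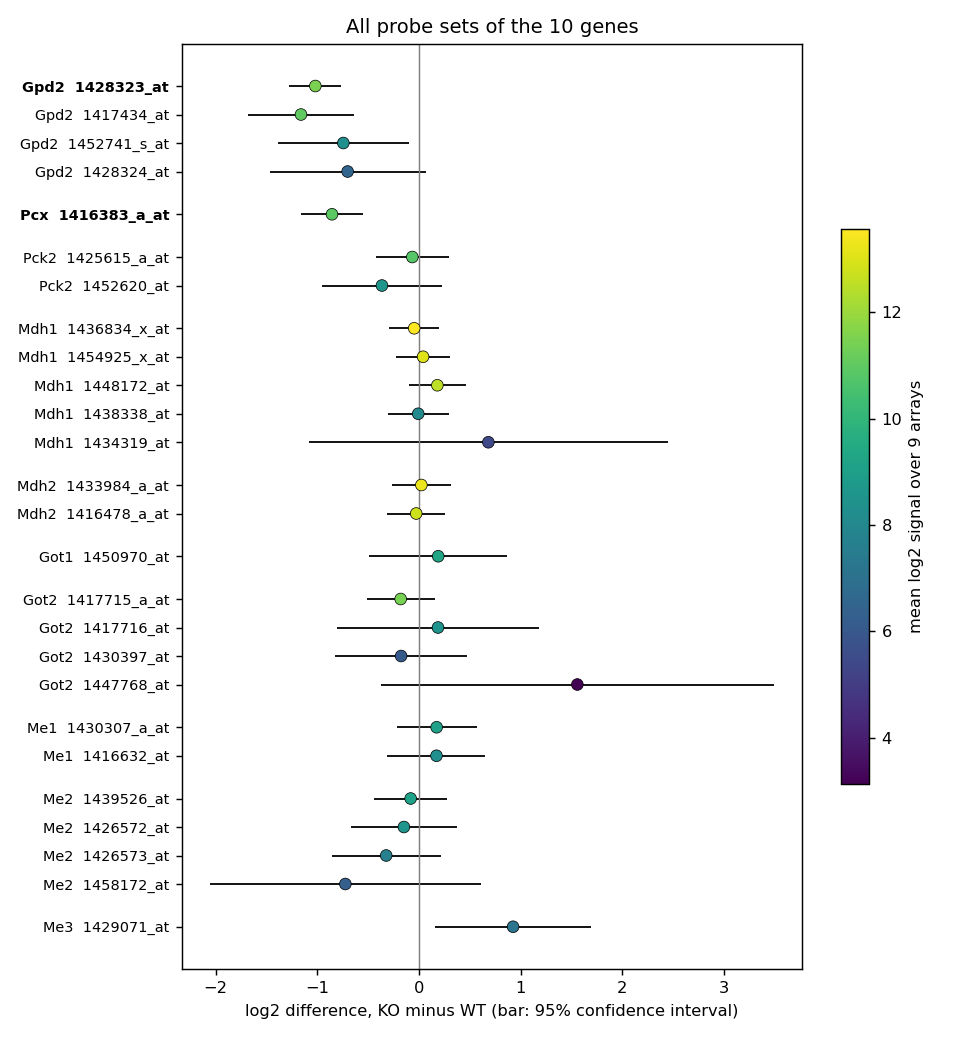
Log2 difference, βRapKO (KO) minus WT, with its 95% confidence interval (horizontal axis) for each of the 26 probe sets of the 10 genes, coloured by mean log2 signal over the 9 arrays; names in bold passed limma's adjusted threshold over all probe sets. All 4 *Gpd2* probe sets lie left of 0 (-0.70 to -1.16), the bright *Mdh1* and *Mdh2* probe sets lie close to 0, and the widest intervals belong to dim probe sets.

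Whether the paired isozymes changed unequally was tested within arrays, as the difference of their 2 log2 signals, in 4 pairs. *Gpd1* is the cytosolic, NAD-linked partner of *Gpd2* in the glycerol phosphate shuttle. It read 8.86, 8.72, 8.78 and 8.97 in βRapKO islets, against 8.58, 9.07, 8.67, 8.60 and 8.65 in WT islets, with overlapping groups and a log2 difference of 0.12 ± 0.12 (SE, limma adjusted p = 0.621). With its probe sets averaged the difference of *Gpd1* was 0.30 ± 0.25 (SE, limma adjusted p = 0.610). The paper's supplement lists *Gpd1* by a different probe set, which was lower in βRapKO islets without reaching significance. The within-array difference *Gpd2* minus *Gpd1* was 1.90 to 2.25 in βRapKO and 3.0 to 3.42 in WT islets. It was thus lower in 4 of 4 βRapKO arrays than in any WT array, by -1.14 ± 0.11 (SE, 95% confidence interval -1.41 to -0.87, exact two-sided permutation p = 0.00794, the smallest possible, and 0.0317 after Benjamini-Hochberg adjustment over the 4 pairs). No other pair passed. The change was -0.07 (95% confidence interval -0.38 to 0.24, exact permutation p = 0.619, adjusted 0.619) for *Mdh1* minus *Mdh2*. It was 0.37 (95% confidence interval -0.51 to 1.25, exact permutation p = 0.325, adjusted 0.434) for *Got1* minus *Got2* and 0.26 (95% confidence interval -0.21 to 0.72, exact permutation p = 0.270, adjusted 0.434) for *Me1* minus *Me2*. These intervals, the last 2 in particular, do not show that the isozymes of a pair changed alike. The *Gpd2* pair lost its call with the probe sets of each gene averaged or with any 1 array left out, where fewer splits are possible.

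The same test was applied to other genes of these pathways. Of 32 genes listed as neighbours of the 10 enzymes, 27 were on the array as used here and 26 passed the filter on dim genes. Among these 2 fell, 0 rose and 24 were not called, with a median difference of -0.04. In both directions together this count is near the share of 6.3% called over all genes. Both called neighbours were lower, where the share over all genes was 2.63%, and no test over the list was made. The carriers and dehydrogenases that complete the 2 shuttles (*Gpd1*, *Gpd1l*, *Slc25a11*, *Slc25a12*, *Slc25a13*) gave 0 calls of 5, with a median of 0.04. Of 8 genes of pyruvate and citrate cycling 1 fell, with 7 negative and a median of -0.16. It was *Idh2*, the mitochondrial NADP-dependent isocitrate dehydrogenase, with 10.73, 11.18, 10.90 and 10.80 in βRapKO islets, against 11.28, 11.47, 11.38, 11.55 and 11.21 in WT islets. The highest βRapKO array (11.18) came close to the lowest WT array (11.21), and the log2 difference was -0.48 ± 0.12 (SE, limma adjusted p = 0.0478). Of 5 further NADH and NADPH enzymes and carriers 1 fell, *Ldhb*, a subunit of lactate dehydrogenase. It read 9.96, 9.60, 9.75 and 9.94 in βRapKO islets, against 10.30, 10.13, 10.31, 10.14 and 10.38 in WT islets, a log2 difference of -0.44 ± 0.11 (SE, limma adjusted p = 0.0439). *Ldha*, which encodes another subunit and is named after its values were seen, was not called (0.10 ± 0.20 SE, limma adjusted p = 0.826). The paper reports *Ldha* raised in these islets by RT-PCR and its protein raised by western blot. The calls of *Idh2* and *Ldhb* both lay at the edge of the threshold. Of 19 other settings, the call of *Idh2* held in 4 and that of *Ldhb* in 5. Among single arrays, the call of *Idh2* held only without KO replicate 2 or WT replicate 5 (limma adjusted p of 0.0335 to 0.136 over the 9 arrays left out), and that of *Ldhb* was lost without any 1 array (0.0597 to 0.113). *Slc16a1*, a carrier of lactate and pyruvate named after its values were seen, gave 0.56 ± 0.27 (SE, limma adjusted p = 0.266) and was called without WT replicate 3.

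None of 6 other anaplerotic and cataplerotic enzymes was called, with a median of 0.01. The lowest p was that of *Pcca*, the biotin-binding subunit of propionyl-CoA carboxylase, with 10.44, 10.33, 10.57 and 10.49 in βRapKO islets, against 10.91, 10.97, 10.88, 10.92 and 10.56 in WT islets. WT replicate 5 lay among the βRapKO arrays, and the log2 difference was -0.39 ± 0.11 (SE, limma adjusted p = 0.0645, and 0.0230 without WT replicate 5). It was called also with the dimmest 0.5 of genes left out (limma adjusted p = 0.0311) and in a trended fit (limma adjusted p = 0.0244). *Glud1*, which encodes glutamate dehydrogenase and was picked after its values were seen because its groups did not overlap, read 11.94, 11.91, 12.01 and 11.99 in βRapKO islets, against 11.69, 11.68, 11.75, 11.81 and 11.66 in WT islets, a log2 difference of 0.24 ± 0.07 (SE, limma adjusted p = 0.0865). *Glud1* passed the test of the study's methods after Benjamini-Hochberg adjustment and with no fold threshold (adjusted p = 0.0156). Its fold of 1.18 was under the 1.5 of those methods, so by their own thresholds it did not pass. It was called also in the trended fit (limma adjusted p = 0.0457). *Pck1*, the cytosolic counterpart of *Pck2*, was among the genes left out as dim and was not tested, with 2.86 to 6.57 in βRapKO and 3.46 to 6.37 in WT islets. Neither gene of biotin supply was called, among them *Hlcs*, which attaches biotin to pyruvate carboxylase, at -0.32 ± 0.19 (SE, limma adjusted p = 0.379). The listed genes not counted here were not analysed.

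**Figure D4:**
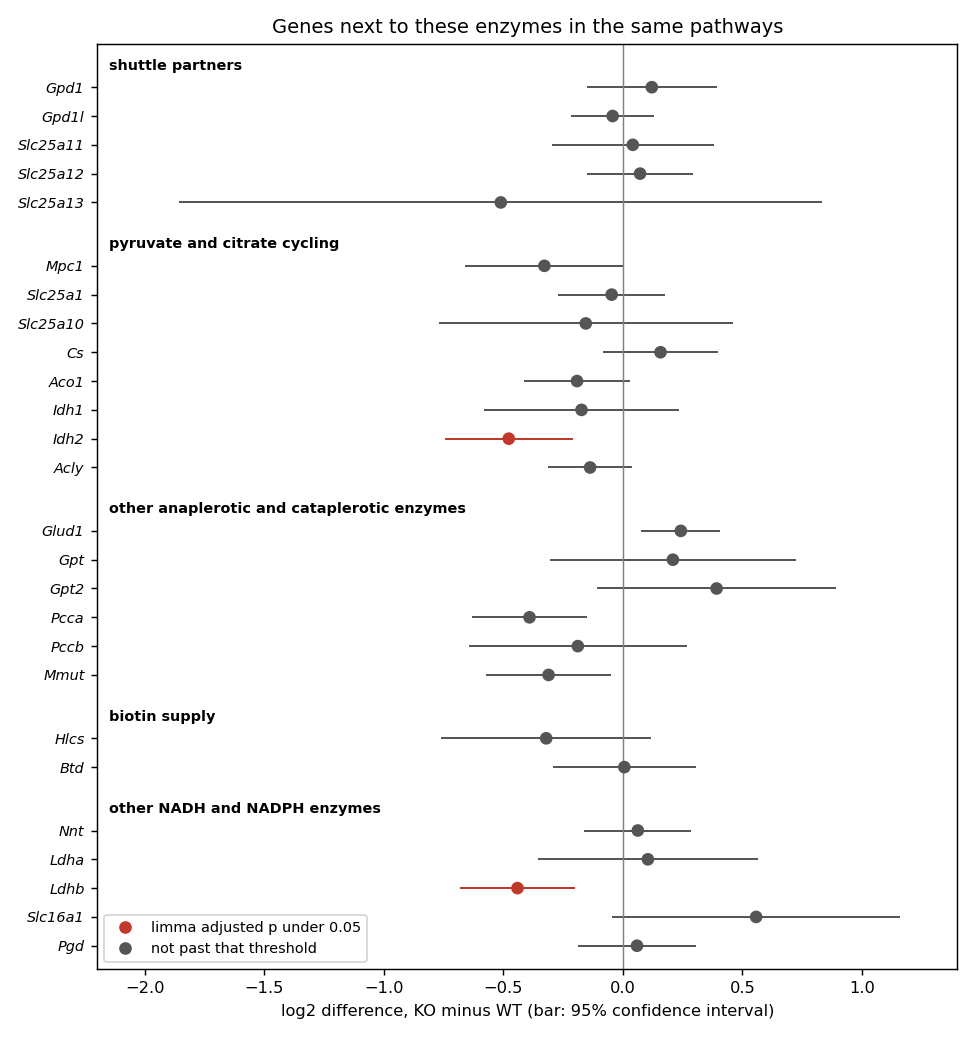
Log2 difference, βRapKO (KO) minus WT, with its 95% confidence interval (horizontal axis) for the 26 tested neighbours of the 10 enzymes, grouped by role; red marks limma adjusted p under 0.05 and grey the rest. Only *Idh2* (-0.48) and *Ldhb* (-0.44) are red, and the shuttle partners apart from *Slc25a13*, which has the widest interval, lie close to 0.

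The genes most like *Gpd2* and *Pcx* across the 9 arrays were found by the root mean square difference between gene-centred log2 profiles, in which a smaller value is more alike. Since all lie low in βRapKO and high in WT islets, this describes likeness among arrays of 2 genotypes and carries no test. Nearest to *Gpd2* were *Maob* (0.0878), *Olfm4* (0.0938), *Pfkfb2* (0.110), *Tex9* (0.115) and *Pacc1* (0.117), against a median of 0.594 over all 13643 other genes. Their log2 differences between βRapKO and WT islets were -1.09, -0.98, -0.84, -1.11 and -0.93 in that order. *Maob* encodes a monoamine oxidase of the outer mitochondrial membrane and *Pfkfb2* an enzyme that sets the level of fructose 2,6-bisphosphate. Nearest to *Pcx* were *Gjd2* (0.109), which encodes a gap junction protein of beta cells, *Pcyt1b* (0.112), *Car10* (0.112), *Coro2b* (0.118) and *Zdhhc2* (0.119), with log2 differences of -0.80, -0.69, -0.86, -0.77 and -0.79. *Gpd2* and *Pcx* differed from each other by 0.194, so that *Pcx* was number 45 in the order for *Gpd2* and *Gpd2* number 72 in the order for *Pcx*.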

How the data were processed

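The authors deposited 1 log2 signal per probe set and array. The methods name Genespring. Neither the summary of probes nor the scaling is given in the sources used here. No detection call or scan date entered the work, so no batch could be examined. The values were used as deposited. Groups and replicate numbers came from the sample titles, and replicates were separate pools, so p-values measure the spread between pools and the number of arrays limits the precision. Of 45037 probe sets, 34945 were paired with 1 gene, 932 with several and 9160 with none here, and only the first were named. The two-sided test was limma's (version 3.58.1, R 4.3.3), by lmFit and eBayes without a covariate and with Benjamini-Hochberg adjustment, over genes after the dimmest 0.25 was left out and over all probe sets without a filter. The scripts were tested on simulated data. Promoter windows came from RefSeq, GRCm38.p6. Exact permutation tests used all 126 splits of the arrays. Where probe sets lie relative to exons was not known here. All members, *Rptor*, called neighbours, the neighbour of lowest p in a list with none called, and the 5 profiles nearest to *Gpd2* and to *Pcx* were named. The members, the lists and the tests were chosen with earlier results of these data known. The alternatives were median centring, quantile normalization, no filter or a filter of 0.5, averaged probe sets, the t-test of the methods, a trended robust fit, the stromal or acinar marker average as a covariate, the replicate number as a block, and each array left out.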

Additional observations from a re-analysis of the deposited data

Results flagged for a closer look

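Dixon's criterion was applied to 35 probe sets, of the members, *Rptor*, *Gpd1*, *Idh2*, *Pcca*, *Hlcs*, *Ldhb* and *Glud1*, each with a βRapKO and a WT group. Of 70 groups 4 held an array far from the rest by it, which chance alone meets in about 5% of groups. *Mdh1* (1436834_x_at) read 13.65 in KO replicate 3 and 13.50 to 13.52 in the other KO arrays. *Mdh2* (1433984_a_at) read 13.50 in WT replicate 5 and 13.15 to 13.24 in the other WT arrays. *Gpd1* read 9.07 in WT replicate 2 and 8.58 to 8.67 in the other WT arrays. *Pcca* read 10.56 in WT replicate 5 and 10.88 to 10.97 in the other WT arrays. No array of *Gpd2* (brightest probe set), *Pcx* or *Me3* stood apart by this criterion.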

How the results depend on the processing

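The calls of *Gpd2* and *Pcx* held in 18 and 17 of 19 alternatives, with log2 differences of -1.06 to -0.79 and -0.92 to -0.81, and *Me3* was called in 0 of 18. The stromal covariate did not overlap between the genotypes, so its fit could not separate the marker average from genotype. With the stromal covariate 0 members, 0 neighbours and 3 genes in all were called, *Rptor* was at -0.42 (limma adjusted p = 0.658), and *Mdh1* (0.084), *Mdh2* (-0.30) and *Hlcs* (0.42) changed sign, while *Pck2* was at -0.70 (limma unadjusted p = 0.00479, adjusted p = 0.230), *Got1* at 1.34 (0.0187 and 0.295), *Got2* at -0.41, *Me1* at 0.28, *Me2* at -0.50 and *Me3* at 1.49. Same-numbered arrays correlated at -0.04 to 0.12 in their deviations from the group means. KO replicates 2 and 3 correlated best with the WT array of their own number, and KO replicates 1 and 4 with WT replicates 4 and 5. Whether arrays of the same number were paired is not known. With the replicate number as a block 1 member (*Gpd2*), 0 neighbours, 0 member probe sets and 61 genes in all were called, *Rptor* was at -0.76 (limma adjusted p = 0.0866) and *Pck2* at 0.021. Averaging a gene's probe sets, 1 neighbour, 0 isozyme pairs and 322 genes in all were called, *Rptor* was at -0.16 (limma adjusted p = 0.888), and *Mdh1* (0.17), *Mdh2* (-0.0019), *Got2* (0.35), *Mdh1* minus *Mdh2* (0.17) and *Got1* minus *Got2* (-0.16) changed sign. Median centring gave 0 neighbours, 1 member probe set, *Mdh2* at -0.017 and 474 genes, 214 higher and 260 lower, against 501 and 359 of 860 as reported. It moved the median of all genes to -0.0008. Quantile normalization gave 1 neighbour, no filter 0 (with 452 genes in all and *Rptor* at -0.72, limma adjusted p = 0.0786), the acinar covariate 0 and the trended fit 4, and the t-test of the methods left *Rptor* at -0.72 (adjusted p = 0.0670). Leaving out 1 array gave 372 to 800 called genes, 0 to 2 neighbours, 0 to 1 member probe sets, 0 isozyme pairs, 0 cell types, *Rptor* at -0.87 to -0.63, *Mdh2* at -0.029 to 0.083, *Me2* at -0.17 to 0.016, *Pck2* at -0.12 to 0.021 and the acinar average at -1.09 to 0.59. Exact permutation tests then had fewer splits, with a smallest p of 0.0179 without a KO array and 0.0286 without a WT array. The *Gpd2* pair and the beta cell, delta cell and endothelial averages stayed at that smallest p each time. Their lost calls therefore do not show dependence on single arrays. SDs within a group were 0.07 to 0.66 over the members.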

Other observations

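*Got1*, the *Got2* probe set 1417716_at, and the neighbours *Slc25a11* and *Pccb* showed a similar order of arrays within the βRapKO group, which was seen in the data and not tested. In βRapKO islets KO replicates 2 and 3 were the highest in each, with 9.80 and 9.88 in *Got1*, 9.01 and 9.21 in the *Got2* probe set, 10.86 and 10.90 in *Slc25a11*, and 10.32 and 10.57 in *Pccb*. KO replicates 1 and 4 read 9.11 and 8.80 in *Got1*, 8.21 and 8.19 in the *Got2* probe set, 10.56 and 10.20 in *Slc25a11*, and 10.11 and 9.82 in *Pccb*. The medians of whole arrays had a like order, 7.05 and 7.02 in KO replicates 2 and 3 and 6.95 and 6.85 in KO replicates 1 and 4. Their part in the shared order was not tested. The brightest *Got2* probe set did not follow it fully, with 11.17, 11.41, 11.33 and 11.33 in KO replicates 1 to 4. In WT islets replicate 5 was the lowest in *Got1* (8.69) and in the *Got2* probe set (7.26), near the lowest in *Slc25a11* (10.48, with 10.46 in WT replicate 2) and in *Pccb* (10.10, with 10.00 in WT replicate 3).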
